A study of Mus musculus with 28 samples.

Results

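The renin angiotensin aldosterone genes of the heart comprise 9 members here, chosen by gene name from the 45513 gene rows of the count table: Agt, Ace, Agtr1a, Agtr1b, Agtr2, Mas1, Atp6ap2, Nr3c2 and Hsd11b1. Of the 9, 7 were expressed, with at least 1 CPM (counts scaled to a common library total) in at least 14 of 28 libraries, and Agtr1b and Agtr2 were close to absent. No member passed the test in any of the 7 comparisons. The smallest adjusted p-values belonged to mice with against mice without the gut bacterium. There Atp6ap2 had a log2 fold change of -0.53 and Mas1 of 0.61 (edgeR adjusted p 0.0522 and 0.0751). In that comparison 2.81% of all genes passed, and 23.0% had an unadjusted p under 0.05. With a score of clock genes in the model, the 2 values were -0.15 and 0.26 (edgeR adjusted p 0.93 and 0.907). In that fit 0% of all 24273 tested genes passed. An unadjusted p under 0.05 was found for 1525 of them, against 5584 without the score.

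The renin angiotensin system controls blood pressure and salt balance. Renin cleaves angiotensinogen, angiotensin converting enzyme turns the product into angiotensin II, and angiotensin II acts on type 1 and type 2 receptors and drives aldosterone release from the adrenal gland, which acts through the mineralocorticoid receptor. In the heart, signalling through the type 1 receptor and the mineralocorticoid receptor is known for its part in hypertrophy and fibrosis, and the Mas receptor for angiotensin 1-7 opposes it.

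RNA of ventricular myocardium from 28 male C57BL/6 mice was sequenced, with 1 library per mouse. At 6 weeks of age the mice had 5/6 nephrectomy, which removes most kidney tissue and is a model of chronic kidney disease (CKD), or a sham operation. On day 7 they were gavaged once with Oxalobacter formigenes (Oxf), a gut bacterium that degrades oxalate, or with culture medium (vehicle), and all 4 groups ate a diet with 1% hydroxyproline, from which oxalate is made, and 0.5% calcium. The title of the series asks about the effect of colonization on kidney disease and cardiac remodelling. The groups were sham-vehicle (n = 10), CKD-vehicle (n = 6), sham-Oxf (n = 5) and CKD-Oxf (n = 7), where n is the number of mice. No strain, allele or drug differed between the groups, so sham-vehicle mice also received the oxalate-raising diet.

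Library totals ran from 19.8 to 65.4 M counts (median 38.1 M, M for mega). Sham-Oxf replicate 1 stood apart: it had the fewest counts, and only 865 of its genes had 1 to 20 counts, against 8833 to 13818 genes in the other 27 libraries. A 0 in that library therefore sets no upper limit, and values that rest on it are given with and without it. Of the labelled tissue's markers, Myh6, the main adult cardiac myosin, had a median of 17756 CPM. Markers of other tissues varied among libraries: summed atrial markers ran from 20.7 to 1881 CPM, adipocyte markers from 0.0474 to 430.2 CPM and liver markers from 0.602 to 94.96 CPM. Renin itself (Ren1) had counts in 11 libraries with a highest value of 0.815 CPM, and Cyp11b2, the aldosterone synthase, did not exceed 0.0266 CPM. In pieces of whole tissue, fewer cells of a type and less RNA per cell cannot be told apart.

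Per kilobase of annotated exon, the scale on which levels of different genes can be compared, the converting enzyme and the mineralocorticoid receptor led. Over all 28 libraries the mean was 10.1 ± 1.82 CPM per kb for Ace (SD), 7.02 ± 1.73 for Nr3c2, 3.23 ± 0.680 for Agtr1a and 2.89 ± 0.942 for Atp6ap2. The means were 1.51 ± 0.735 CPM per kb for Agt, 1.23 ± 0.466 for Mas1 and 1.17 ± 0.474 for Hsd11b1. Ace lay above Nr3c2 in 24 of 28 libraries and Nr3c2 above Agtr1a in all 28. Agtr1a lay above Atp6ap2 in 19, Agt above Mas1 in 15 and Mas1 above Hsd11b1 in 16, and in these 3 neighbouring pairs the difference of the means was smaller than either SD. Atp6ap2 lay above Agt in 27 libraries.

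**Figure D1:**
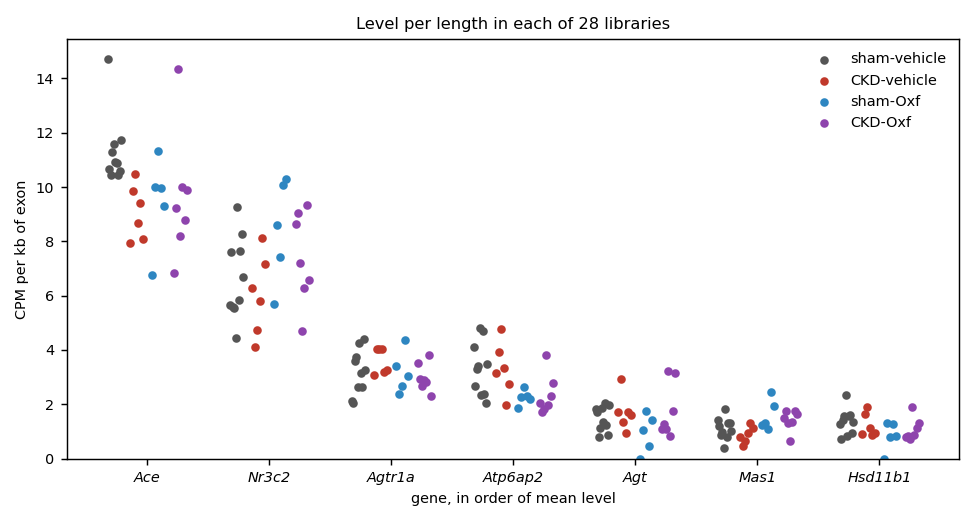
Level of the 7 expressed genes in CPM per kb of exon (y axis) by gene (x axis), with 1 point per library, coloured by group. Ace and Nr3c2 have the highest means, the lowest Nr3c2 libraries overlap Agtr1a and Atp6ap2, and Agt, Mas1 and Hsd11b1 overlap each other.

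Angiotensinogen (Agt, ENSMUSG00000031980, chromosome 8, 124556534 to 124569706, minus strand, GRCm38) is the only precursor of the angiotensins and is made mainly by the liver. Its level ran from 1.52 to 3.90 CPM in sham-vehicle (median 2.89) and from 1.78 to 5.55 CPM in CKD-vehicle (median 3.13). In CKD-Oxf it ran from 1.55 to 6.07 CPM (median 2.39), and the 5 sham-Oxf libraries were at 0, 1.98, 3.34, 0.865 and 2.68 CPM. The groups overlapped, with 2 high libraries in CKD-Oxf (replicates 4 and 7, at 6.07 and 5.94 CPM) and the 0 in the library that stood apart. The mean of sham-Oxf was 1.77 ± 1.35 CPM with that library and 2.22 ± 1.06 CPM without it (SD, n = 4).

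Angiotensin converting enzyme (Ace, ENSMUSG00000020681, chromosome 11, 105967945 to 105989964, plus strand), carried mostly by endothelial cells, turns angiotensin I into angiotensin II. The sham-vehicle hearts spanned 55.3 to 77.7 CPM (median 57.6) and the CKD-vehicle hearts 42.0 to 55.4 CPM (median 47.8). CKD-Oxf spanned 36.1 to 75.9 CPM (median 48.8), and sham-Oxf held 35.7, 52.9, 59.9, 52.6 and 49.2 CPM. All 6 CKD-vehicle mice lay below the sham-vehicle median, and only 1 of them reached the lowest sham-vehicle value. Ace shares exon sequence with the antisense gene Gm11651, so the reads of the 2 genes cannot be separated if strand was not used in counting, which the sources used here do not state.

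The type 1 angiotensin receptors carry most known cardiovascular actions of angiotensin II, and mice have a pair of them. Agtr1a (ENSMUSG00000049115, chromosome 13, 30336441 to 30382867, plus strand) accounted for nearly all counts of the pair: 10125 counts over the 28 libraries, against 8 counts of Agtr1b (ENSMUSG00000054988, chromosome 3, 20314473 to 20367177, minus strand). The coding sequences are each 1080 bases long and identical at 981 of them (90.8%), so reads of one could in part be assigned to the other. The longest identical stretch was 66 bases, and 33 of 1031 windows of 50 bases (3.2%) were the same in both. The first 120 coding bases of each, from GENCODE M21, are shown because they hold the differences by which reads of this part can be told apart. Capitals mark the 8 bases that differ.
Agtr1a: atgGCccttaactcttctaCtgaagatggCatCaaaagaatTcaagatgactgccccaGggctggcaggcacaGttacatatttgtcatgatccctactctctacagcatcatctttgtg
Agtr1b: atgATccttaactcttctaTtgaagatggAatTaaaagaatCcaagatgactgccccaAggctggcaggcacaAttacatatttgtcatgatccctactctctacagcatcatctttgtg

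Agtr1a overlapped between all groups. It spanned 5.73 to 12.3 CPM in sham-vehicle (median 8.93), 8.55 to 11.3 CPM in CKD-vehicle (median 10.1) and 6.47 to 10.6 CPM in CKD-Oxf (median 8.03). The sham-Oxf libraries were at 9.53, 6.62, 7.46, 12.2 and 8.51 CPM. Every group lay within the range of sham-vehicle. In CKD-Oxf, 6 of 7 libraries lay below the CKD-vehicle median (log2 fold change -0.26 ± 0.17, SE, edgeR adjusted p 0.512). Agtr1b had 3 counts in sham-vehicle, all in 1 library, 3 in CKD-vehicle, 2 in CKD-Oxf and 0 in sham-Oxf, where 0 counts in the 4 libraries other than replicate 1 allow a level of up to 0.0196 CPM (3 counts, counting error only).

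The type 2 receptor Agtr2 (ENSMUSG00000068122, chromosome X, 21484544 to 21489164, plus strand), known from fetal tissue, had 9 counts in 7 libraries and at most 3 in any. Of these, 2 came from sham mice and 2 from CKD mice given vehicle, and 1 from sham mice and 4 from CKD mice given Oxf. A difference between groups in Agtr1b or Agtr2 was not detectable at this depth, and neither gene was tested.

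Mas1 (ENSMUSG00000068037, chromosome 17, 12841079 to 12868143, minus strand) encodes the receptor for angiotensin 1-7, and lies within the span of the antisense gene Airn without sharing exons. It spanned 1.03 to 4.80 CPM in sham-vehicle (median 2.86) and 1.23 to 3.41 CPM in CKD-vehicle (median 2.28). In CKD-Oxf it spanned 1.73 to 4.605 CPM (median 3.90), and the sham-Oxf libraries were at 3.23, 3.42, 2.84, 6.43 and 5.05 CPM. In CKD-Oxf, 6 of 7 libraries exceeded the CKD-vehicle median and the lowest, replicate 4, stood apart from the others. In sham-Oxf, 4 of 5 exceeded the sham-vehicle median.

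Atp6ap2 (ENSMUSG00000031007, chromosome X, 12587801 to 12617049, plus strand) encodes the prorenin receptor, which is also an accessory subunit of the vacuolar proton pump. The vehicle groups were alike, at 5.33 to 12.6 CPM in sham-vehicle (median 8.79) and 5.18 to 12.5 CPM in CKD-vehicle (median 8.51). CKD-Oxf spanned 4.46 to 9.97 CPM (median 5.37), and sham-Oxf held 4.84, 5.97, 6.89, 6.00 and 5.73 CPM. Each of the 5 colonized sham mice was under the median of sham-vehicle, and 6 of 7 CKD-Oxf libraries lay below the CKD-vehicle median. The exception was CKD-Oxf replicate 4, the same library that was lowest in Mas1 and whose 7SL RNA share, 20.6%, was the highest of its group.

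The mineralocorticoid receptor Nr3c2 (ENSMUSG00000031618, chromosome 8, 76899442 to 77245012, plus strand) binds aldosterone and, in cardiomyocytes, mostly glucocorticoids. It shares exon sequence with the antisense gene Gm10649. Sham-vehicle spanned 28.7 to 60.0 CPM (median 40.6), CKD-vehicle 26.5 to 52.5 CPM (median 39.1) and CKD-Oxf 30.5 to 60.5 CPM (median 46.6). The sham-Oxf libraries were at 36.9, 55.8, 48.0, 65.1 and 66.6 CPM, so that 4 of 5 exceeded the sham-vehicle median, the exception being replicate 1.

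Hsd11b1 (ENSMUSG00000016194, chromosome 1, 193221634 to 193264075, minus strand) encodes the enzyme that regenerates active glucocorticoid inside cells. It spanned 3.06 to 9.95 CPM in sham-vehicle (median 5.87), 3.68 to 8.04 CPM in CKD-vehicle (median 4.43) and 3.03 to 8.03 CPM in CKD-Oxf (median 3.68). The sham-Oxf libraries were at 0, 5.63, 3.43, 5.35 and 3.49 CPM, all below the sham-vehicle median. The mean of sham-Oxf was 3.58 ± 2.25 CPM with replicate 1 and 4.47 ± 1.18 CPM without it (SD, n = 4).

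**Figure D2:**
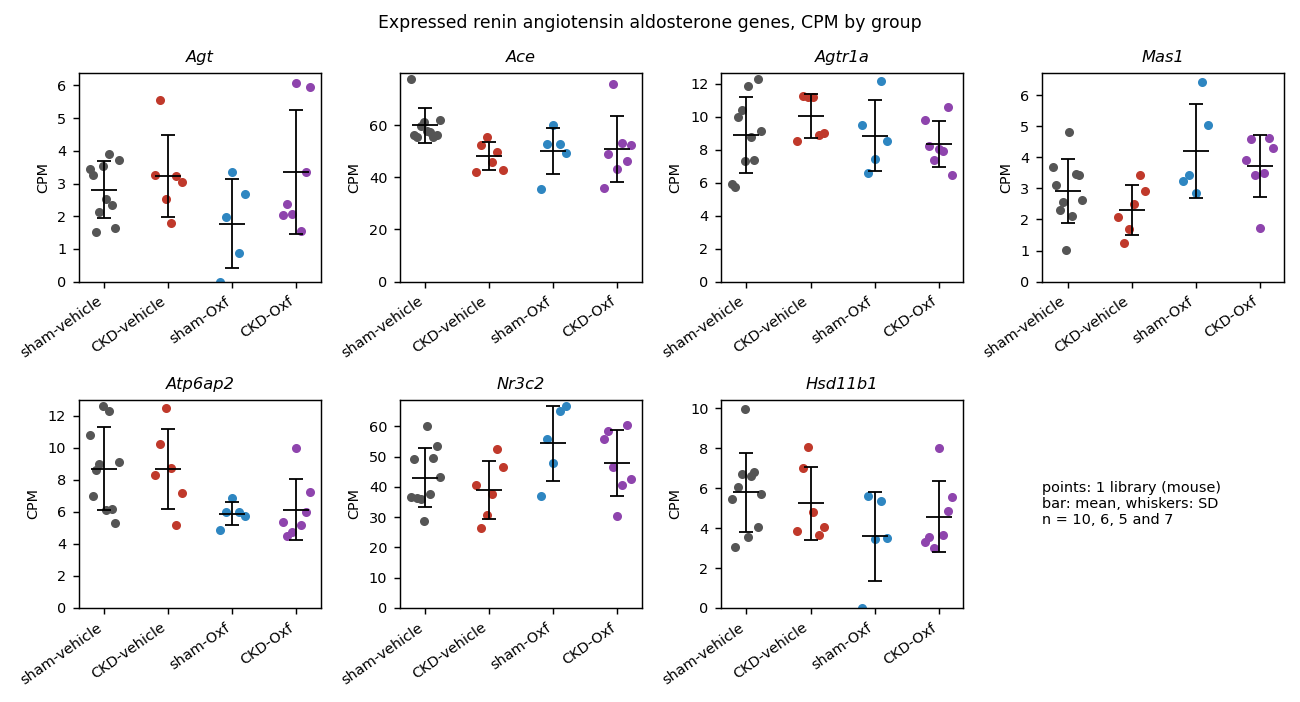
CPM (y axis, from 0) of the 7 expressed genes in each library by group (x axis), with a horizontal line for the mean and whiskers for the SD. All groups overlap in every gene. Sham-Oxf replicate 1 is at 0 in Agt and Hsd11b1.

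On the log2 CPM scale the group means of Ace were 5.90 ± 0.15, 5.58 ± 0.16, 5.63 ± 0.28 and 5.63 ± 0.33 (SD), ordered as sham and CKD with vehicle, then sham and CKD with Oxf. In the same order they were 3.11 ± 0.39, 3.32 ± 0.19, 3.12 ± 0.34 and 3.05 ± 0.24 for Agtr1a, and 1.47 ± 0.59, 1.16 ± 0.53, 2.02 ± 0.49 and 1.85 ± 0.48 for Mas1. For Atp6ap2 they were 3.07 ± 0.43, 3.07 ± 0.43, 2.56 ± 0.18 and 2.58 ± 0.40, and for Nr3c2 5.398 ± 0.33, 5.25 ± 0.37, 5.74 ± 0.35 and 5.55 ± 0.35. Agt was at 1.44 ± 0.48, 1.63 ± 0.53 and 1.58 ± 0.77 in sham-vehicle, CKD-vehicle and CKD-Oxf, and Hsd11b1 at 2.47 ± 0.50, 2.34 ± 0.47 and 2.13 ± 0.50. Their sham-Oxf means, -0.05 ± 2.50 and 0.84 ± 2.91, are set by the 0 counts of replicate 1.

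The effect of nephrectomy without the bacterium was read from CKD-vehicle against sham-vehicle. With edgeR's quasi-likelihood test and Benjamini-Hochberg adjustment over 24273 genes (threshold 0.05), 0 of the 7 tested members passed, as did 0.00824% of all tested genes. DESeq2 and limma voom called 0 members, beside 0.119% and 0.227% of all genes. At an unadjusted p under 0.05 in edgeR it was 1 of 7, against 4.46% of all genes. That gene was Ace, with a log2 fold change of -0.32 ± 0.12 (SE, unadjusted p 0.0158, edgeR adjusted p 0.955). Without sham-vehicle replicate 1, the highest library, it was -0.27 (edgeR adjusted p 0.992). Over 11 alternatives, listed with the processing, the adjusted p of Ace ran from 0.0612 to 1. The other 6 members had unadjusted p-values of 0.217 or more. No member had groups that did not overlap, against 0.128% of all genes.

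The effect of nephrectomy in colonized mice was read from CKD-Oxf against sham-Oxf. Again 0 of 7 members passed in edgeR (0% of all genes), and 0 had an unadjusted p under 0.05, against 8.23% of genes. DESeq2 and limma voom also called 0 members, beside 0.412% and 0% of all genes. The largest value was that of Agt, 0.90 ± 0.49 (unadjusted p 0.0786, edgeR adjusted p 0.686), with 6 of 7 CKD-Oxf libraries above the sham-Oxf median. Without sham-Oxf replicate 1 it was 0.60 (edgeR adjusted p 0.806). Averaged over both gavages, the surgery effect gave 0 of 7 (0% of genes called, 10.6% at an unadjusted p under 0.05, 0 of the members), with Agt nearest at 0.55 ± 0.32 (unadjusted p 0.0965, edgeR adjusted p 0.542). The interaction of surgery and gavage also gave 0 of 7 (0% called and 3.55% unadjusted, 0 of the members). There Ace came nearest, at 0.34 ± 0.19 (unadjusted p 0.0795, edgeR adjusted p 1), and it was 0.22 without CKD-Oxf replicate 3. DESeq2 and limma voom called 0 members in both, beside 0.424% and 0.515% of all genes for the surgery effect and 0% for the interaction.

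The effect of Oxf was read in each surgery group and averaged over them. Within CKD mice 0 of 7 members passed in edgeR, against 0.0330% of all genes (0.0247% higher and 0.00824% lower). DESeq2 called 0 of 7 and 0.832% of all genes, and limma voom called 2 of 7, Atp6ap2 and Mas1, and 14.9% of all genes. At an unadjusted p under 0.05 these 2 of 7 were found, against 13.1% of genes. The log2 fold change of Mas1 was 0.69 ± 0.29 (edgeR adjusted p 0.319) and that of Atp6ap2 -0.50 ± 0.21 (edgeR adjusted p 0.332). Leaving out 1 library in turn moved the adjusted p of Mas1 between 0.088 and 0.71 and that of Atp6ap2 between 0.0661 and 0.744. Groups did not overlap in 0 of 7 members, against 0.478% of genes.

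Within sham mice 0 of 7 passed in edgeR (0% of genes). DESeq2 and limma voom called 0 members, beside 0.548% and 0.132% of all genes. An unadjusted p under 0.05 in edgeR was found in 1 of 7, against 12.6% of genes. This was Atp6ap2, at -0.56 ± 0.22 (unadjusted p 0.0149, edgeR adjusted p 0.287). Mas1 was at 0.53 ± 0.27 and Nr3c2 at 0.34 ± 0.18 (edgeR adjusted p 0.424 and 0.425). Without sham-Oxf replicate 1 the values were -0.50 for Atp6ap2, 0.61 for Mas1 and 0.45 for Nr3c2, with edgeR adjusted p-values of 0.531, 0.532 and 0.531. That library also moved Hsd11b1 from -0.68 to -0.37 and Agt from -0.65 to -0.34. Groups did not overlap in 0 of 7 members, against 0.227% of genes in this comparison and 0.272% in CKD-Oxf against sham-Oxf.

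Averaged over surgery, 0 of 7 members passed in edgeR, against 2.81% of all genes (1.26% higher and 1.54% lower), and 3 of 7 had an unadjusted p under 0.05, against 23.0%. Atp6ap2 had a log2 fold change of -0.53 ± 0.15 (unadjusted p 0.00163, edgeR adjusted p 0.0522), Mas1 was at 0.61 ± 0.20 (unadjusted p 0.00464, edgeR adjusted p 0.0751) and Nr3c2 at 0.32 ± 0.13 (unadjusted p 0.0194, edgeR adjusted p 0.139). DESeq2 called Atp6ap2 and Mas1 (adjusted p 0.0157 and 0.0382) and 8.79% of all genes. Limma voom called all 3 (adjusted p 0.00595, 0.00277 and 0.00595) and 21.9% of all genes. Over 10 alternatives the adjusted p ran from 0.00595 to 0.93 for Atp6ap2, from 0.00277 to 0.907 for Mas1 and from 0.00595 to 0.981 for Nr3c2. The other 4 members were at -0.44 ± 0.30 (Hsd11b1), -0.13 ± 0.12 (Agtr1a), -0.09 ± 0.09 (Ace) and -0.30 ± 0.32 (Agt), with edgeR adjusted p-values of 0.394 or more. Without sham-Oxf replicate 1 these were -0.29, -0.15, -0.04 and -0.15, in the same order.

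The side of the threshold turned on single libraries. Without CKD-Oxf replicate 4, Atp6ap2 was at -0.61 (edgeR adjusted p 0.00862) and Mas1 at 0.66 (edgeR adjusted p 0.0263), in a fit that called 13.9% of all genes. Without sham-vehicle replicate 6, or without CKD-vehicle replicate 5, both also passed (4.82% and 7.83% of all genes called), and Atp6ap2 alone passed without sham-vehicle replicate 2, 8 or 9, CKD-vehicle replicate 6 or sham-Oxf replicate 3, where 2.99% to 4.09% of all genes were called. Over these 28 fits the adjusted p of Atp6ap2 ran from 0.00862 to 0.117 and that of Mas1 from 0.0263 to 0.169.

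**Figure D3:**
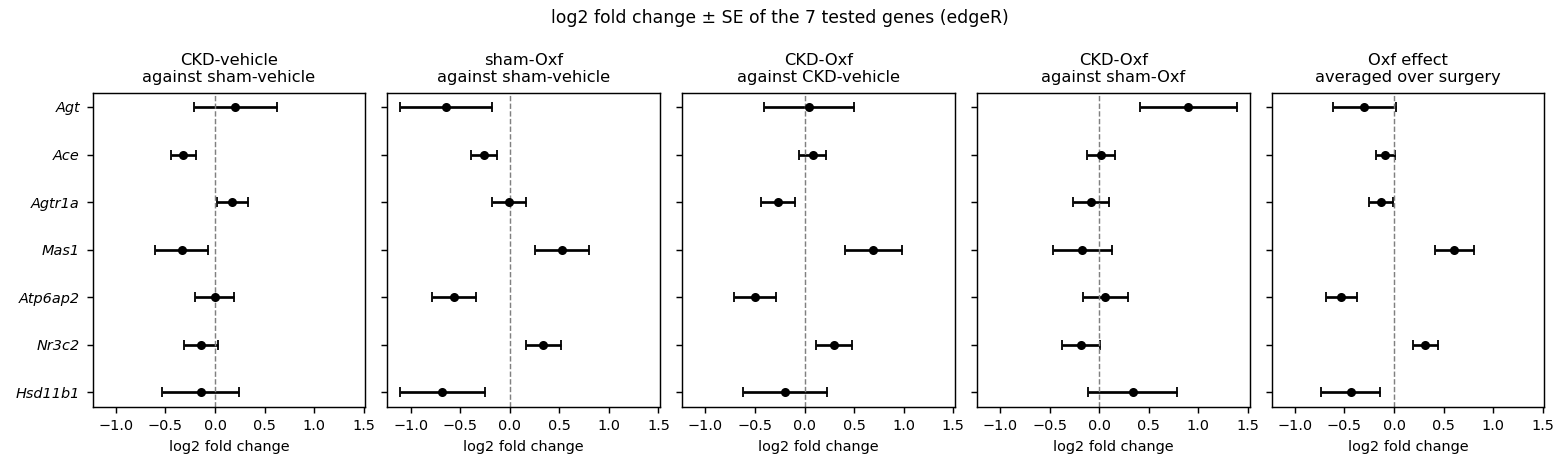
log2 fold change ± SE (x axis) of the 7 tested genes (y axis) in the 4 pairwise comparisons and in the Oxf effect averaged over surgery. Atp6ap2 lies below 0, and Mas1 and Nr3c2 above 0, in each of the 3 panels that compare Oxf with vehicle.

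Other measures differed between the gavage groups too. Mouse numbers ran from 901 to 910 in sham-vehicle and from 913 to 920 in CKD-vehicle. In sham-Oxf they ran from 921 to 929 and in CKD-Oxf from 931 to 940. Differences between groups and differences with mouse number therefore cannot be told apart. The clock score, the level of the clock genes around Dbp and Per1 minus that of the list around Arntl, had a median of -0.21 in sham-vehicle and -1.503 in CKD-vehicle, against 1.76 in sham-Oxf and 1.05 in CKD-Oxf. Within sham-vehicle alone it was -1.43 in mouse 901, 1.70 in mouse 909 and 1.26 in mouse 910. The share of counts from 7SL RNA, a structural RNA, had medians of 10.1% and 14.04% in the vehicle groups and 2.70% and 7.73% in sham-Oxf and CKD-Oxf. Summed fibroblast markers (6 of 6 tested) had medians of 529 CPM (273 to 822) and 481 CPM (364 to 756) in the sham and CKD mice given vehicle, and of 359 CPM (279 to 623) and 349 CPM (251 to 605) in those given Oxf. Adding the clock score to the model, the averaged Oxf effect was -0.15 for Atp6ap2, 0.26 for Mas1 and -0.04 for Nr3c2. With the fibroblast score it was -0.22, 0.37 and 0.15, and with the 7SL share -0.35, 0.34 and 0.11. In these 3 fits 0 members passed, beside 0%, 0.0742% and 0.544% of all genes, against 2.81% without a covariate. The part of each measure in the result was not tested beyond these fits.

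Within groups, the clock score was set against the 7 genes in the 3 groups with at least 6 mice, which gave 21 relations. None passed adjustment by Pearson or Spearman correlation. With 6 mice, even a perfect rank order could not pass alone by Spearman after adjustment over 21 relations. The smallest p was that of Mas1 in CKD-vehicle (r 0.908, exact permutation p 0.0153, adjusted p 0.321; rho 0.943, exact permutation p 0.0167, adjusted p 0.351; n = 6). Without the 2 libraries farthest from the median score, r there was 0.862 over 4 mice (exact permutation p 0.208).

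Some pairs of members were correlated from mouse to mouse within groups. Each value was taken as log2 CPM minus its group mean, over 28 libraries, and p-values came from 100000 permutations within groups, two-sided, adjusted over 21 pairs. The 21 pairs share libraries and scaling factors, so they are not independent. In 5 pairs both the Pearson and the Spearman correlation passed. Mas1 and Nr3c2 went together (r 0.849, adjusted permutation p 0.000105; rho 0.811, adjusted permutation p 0.00021), where 1e-05 is the smallest unadjusted p the permutations can give. Without the 2 libraries farthest from the median of Mas1, r was 0.807. Of the 13905 other genes averaging 1 log2 CPM or more, 0.928% had a rho with Mas1 of at least this size in either direction, and 4.01% had one with Nr3c2.

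Atp6ap2 went the other way, in correlations that many other genes shared. Its correlation with Nr3c2 was r -0.718 and rho -0.719 (adjusted permutation p 0.00063 and 0.0007), and -0.633 without the 2 farthest libraries. With Mas1 it was r -0.678 and rho -0.602 (adjusted permutation p 0.00105 and 0.00787), and -0.542 without the 2 farthest. With Hsd11b1 it was r 0.423 and rho 0.665 (adjusted permutation p 0.000105 and 0.000315), and r was 0.408 without the 2 farthest and 0.758 without sham-Oxf replicate 1. Agt and Atp6ap2 made the fifth pair (r 0.392, rho 0.476, adjusted permutation p 0.00475 and 0.0274), with r 0.445 without the 2 farthest. Correlations of Atp6ap2 at least as large in size as those with Nr3c2, Mas1, Hsd11b1 and Agt were held by 13.4%, 30.1%, 20.8% and 48.4% of the 13905 genes.

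Sham-Oxf replicate 1 decided the pair of Nr3c2 and Hsd11b1, whose r was 0.0806 with it and -0.708 without it, and the pair of Agt and Hsd11b1, whose r was 0.841 with it and 0.272 without it. Ace and Agtr1a entered none of the 5 pairs.

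**Figure D4:**
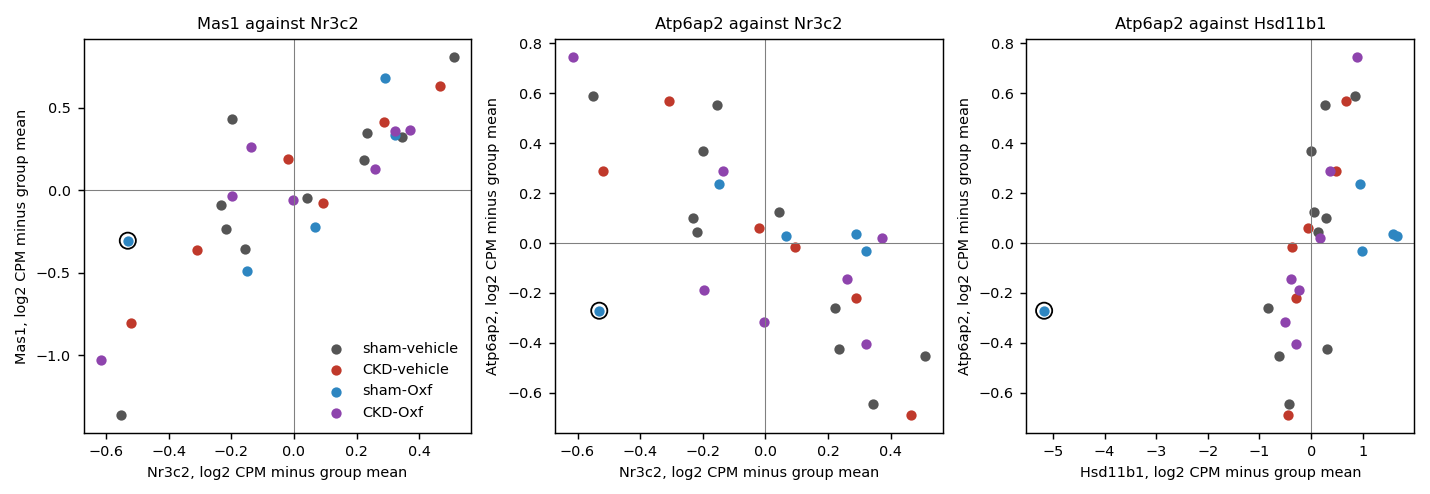
Deviation of log2 CPM from the group mean for Mas1 against Nr3c2, Atp6ap2 against Nr3c2 and Atp6ap2 against Hsd11b1, with 1 point per library, coloured by group, and a ring around sham-Oxf replicate 1. Libraries high in Nr3c2 tended to be high in Mas1 (r 0.849) and low in Atp6ap2 (r -0.718), 28 libraries each. The ring lies far to the left in the last panel because Hsd11b1 had 0 counts there.

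The same deviations were set against 16 measures of the libraries, 112 relations in all, and 6 passed by both coefficients. The share of all genes with relations of these sizes was not computed. Whether the relations are particular to the members was therefore not tested. Nr3c2 and Mas1 were lower where the 7SL share was higher (r -0.666 and -0.612, rho -0.660 and -0.605; adjusted permutation p of r 0.0162 and 0.0297, of rho 0.0258 and 0.0273), with r -0.573 and -0.513 without the 2 farthest libraries. Nr3c2 also went with the clock genes around Dbp (r 0.588, rho 0.629; adjusted permutation p 0.0352 and 0.0273; r 0.565 without the 2 farthest). Against pericyte and smooth muscle markers it had r -0.563 and rho -0.614 (adjusted permutation p 0.0443 and 0.0273; r -0.548 without the 2 farthest). Atp6ap2 went with the fibroblast score (r 0.724, rho 0.669; adjusted permutation p 0.00896 and 0.0258; r 0.732 without the 2 farthest). Agt went with the macrophage and leukocyte score (r 0.821, rho 0.666; adjusted permutation p 0.0314 and 0.0273), with r 0.545 without the 2 farthest and 0.556 without sham-Oxf replicate 1. In that library Agt had 0 counts and this score was -1.88, and no p was computed without the library. Leaving it out, the r of Agt was higher with the fibroblast score (0.669) and the atrial score (0.699). Over all 28 libraries these 2 relations of Agt passed by Spearman only (rho 0.564 and 0.580, adjusted permutation p 0.0294 and 0.042), with r 0.373 and 0.295. For Agt, r with liver markers is not among these 6, and its rho with them was -0.129.

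For each expressed member, the 3 genes with the most similar deviations were found among the 13905 genes averaging 1 log2 CPM or more, by Spearman's rho over 28 libraries. They were Socs4, M6pr and Naa50 for Atp6ap2 (0.938, 0.937 and 0.934), Kat6b, Nfatc2 and Atf7ip for Nr3c2 (0.930, 0.929 and 0.922), and Tcte2, Fbxl20 and RP24-259F16.5 for Mas1 (0.910, 0.899 and 0.876). Likeness was weaker for the other receptor and for the converting enzyme: Fgf16, Lrrc15 and Zfp457 for Agtr1a (0.744, 0.718 and 0.709), and Nox4, Itgbl1 and C1qtnf6 for Ace (0.722, 0.708 and 0.658). The genes were Ralgps2, Gprin3 and Lgals3 for Agt (0.906, 0.886 and 0.876) and RP23-474B13.3, Erh and RP23-207B21.2 for Hsd11b1 (0.931, 0.912 and 0.912). Without sham-Oxf replicate 1 these last values were 0.744, 0.801 and 0.829 for Agt and 0.857, 0.747 and 0.675 for Hsd11b1.

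The sequences upstream of the RefSeq starts of Nr3c2, Mas1 and Atp6ap2 are shown because these 3 genes had the smallest p-values for the averaged Oxf effect. They are from RefSeq (GRCm38.p6), which had entries for 8 of the 9 members, and end at the RefSeq start site or at the first base of an annotated exon (Nr3c2, 42 bases earlier). The Nr3c2 stretch lies inside the gene's GENCODE span given above, which starts further upstream than the RefSeq start. Capitals mark CCAAT on either strand (a CCAAT box) and TGTTCT on either strand (part of a steroid receptor site). The stretches are chr8:76902080-76902287 (plus strand), chr17:12868144-12868393 (minus strand) and chrX:12587509-12587758 (plus strand).
Nr3c2: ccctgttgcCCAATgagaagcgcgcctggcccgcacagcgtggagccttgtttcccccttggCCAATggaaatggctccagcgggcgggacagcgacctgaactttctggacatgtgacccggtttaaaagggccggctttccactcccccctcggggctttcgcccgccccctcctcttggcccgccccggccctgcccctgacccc
Mas1: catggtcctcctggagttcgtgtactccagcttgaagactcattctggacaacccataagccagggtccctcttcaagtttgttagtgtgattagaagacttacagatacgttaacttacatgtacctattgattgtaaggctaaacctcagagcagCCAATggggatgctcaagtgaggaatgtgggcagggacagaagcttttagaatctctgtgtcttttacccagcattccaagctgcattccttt
Atp6ap2: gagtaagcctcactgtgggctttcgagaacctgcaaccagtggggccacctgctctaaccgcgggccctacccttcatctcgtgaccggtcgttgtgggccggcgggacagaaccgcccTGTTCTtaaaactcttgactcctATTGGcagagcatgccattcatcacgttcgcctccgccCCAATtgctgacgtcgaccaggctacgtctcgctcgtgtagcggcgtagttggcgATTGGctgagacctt

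In these stretches CCAAT was found 2 times for Nr3c2, 1 time for Mas1 and 3 times for Atp6ap2, and TGTTCT 1 time, for Atp6ap2. In the full windows CCAAT was found in 7 and TGTTCT in 1 of the 8 members with an entry. In windows of 250 bases, 33.85% of 32851 RefSeq promoters held CCAAT and 16.08% held TGTTCT on either strand. The clock motifs CACGTG (E-box) and TTANNTAA (D-box), in 6.02% and 5.43% of all promoters, were found in 0 of the 8 members with an entry. The letters TATAAA on either strand were found in 3 of the 8, against 12.37% of all promoters. A member was counted where any of its entries held the letters, while the shares of all promoters count each entry. Ace had 2 entries, 1 with CCAAT and the other with TATAAA. These are matches of letters and show no binding.

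The other genes of the pathway were taken from 6 lists with 91 genes, of which 80 were tested. Averaged over surgery, 3 of the 80 changed with Oxf in edgeR, 1 higher and 2 lower, against 2.81% of all genes, and 28 had an unadjusted p under 0.05, against 23.0%. In the other 6 comparisons 0 of the 80 passed in edgeR. Counts of the 80 at an unadjusted p under 0.05 follow, each beside the share of all genes. They were 14 of 80 beside 4.46% in CKD-vehicle against sham-vehicle and 16 of 80 beside 13.1% in CKD-Oxf against CKD-vehicle. In sham-Oxf against sham-vehicle it was 15 of 80 beside 12.6%, and in CKD-Oxf against sham-Oxf 3 of 80 beside 8.23%. For the averaged surgery effect it was 10 of 80 beside 10.6%, and for the interaction 1 of 80 beside 3.55%. DESeq2 called 1, 3, 1 and 1 of the 80 in CKD-Oxf against CKD-vehicle, sham-Oxf against sham-vehicle, CKD-Oxf against sham-Oxf and the averaged surgery effect, beside 0.832%, 0.548%, 0.412% and 0.424% of all genes. Limma voom called 15 and 1 in the first 2 of these, beside 14.9% and 0.132% of all genes.

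Of the 15 corticosteroid targets, 14 were tested and 1 rose, Usp2, a clock-controlled deubiquitinase also known as an aldosterone target (0.57 ± 0.12, edgeR adjusted p 0.014). Adding the clock score to the model, Usp2 was at 0.06 (edgeR adjusted p 0.955). With the fibroblast score it was at 0.39 and with the 7SL share at 0.54 (edgeR adjusted p 0.132 and 0.042). Of 22 genes that respond to angiotensin, 21 were tested and 1 fell, Nppb, the B-type natriuretic peptide (-1.67 ± 0.29, edgeR adjusted p 0.00539). Nppb was at -0.67 with the clock score in the model and at -1.35 with the fibroblast score (edgeR adjusted p 0.831 and 0.0946), neither past the threshold. With the 7SL share it was at -1.10 and passed (edgeR adjusted p 0.0341). The clock, fibroblast and 7SL fits called 0%, 0.0742% and 0.544% of all genes. Usp2 and Nppb each passed in all 28 fits that left out 1 library. Among the genes that respond to angiotensin, 16 of the 21 were below 0, with a median of -0.34, beside 0.00 over all genes tested. An unadjusted p under 0.05 was found for 2 higher and 5 lower genes, against 23.0% of all genes in either direction. Col1a1 of this list is also a fibroblast marker, and the summed fibroblast markers had lower medians with Oxf. None of 13 tested receptor partners and none of 4 tested genes of corticosteroid metabolism passed in edgeR, where 4 and 1 had an unadjusted p under 0.05, against 23.0% of all genes. Adrbk1, a receptor kinase, came nearest among the partners (0.28 ± 0.08, edgeR adjusted p 0.0614).

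Atp6ap2 is a part of the vacuolar proton pump, and 15 other genes of that pump were tested. Averaged over surgery, 14 of the 15 had log2 fold changes below 0 and the median was -0.21, beside 12040 of all 24273 genes below 0 and a median of 0.00. None passed in edgeR, while 7 lower and 1 higher had an unadjusted p under 0.05, against 23.0% of all genes in either direction. The other accessory subunit, Atp6ap1, was at -0.37 ± 0.12 (edgeR adjusted p 0.0773), and the membrane subunit Atp6v0a1 was the one above 0, at 0.21 ± 0.08 (edgeR adjusted p 0.13). In sham mice 14 of 15 and in CKD mice 13 of 15 were below 0, beside 13338 and 11352 of all 24273 genes. These comparisons share no library, but median clock score, 7SL share and fibroblast markers differed with gavage in both. With the clock score, the fibroblast score or the 7SL share in the model, the averaged effect of Atp6ap1 was -0.17, -0.21 and -0.19. Its edgeR adjusted p-values there were 0.907, 0.559 and 0.408. For CKD-vehicle against sham-vehicle, 4 of 15 were below 0 and the median was 0.05.

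**Figure D5:**
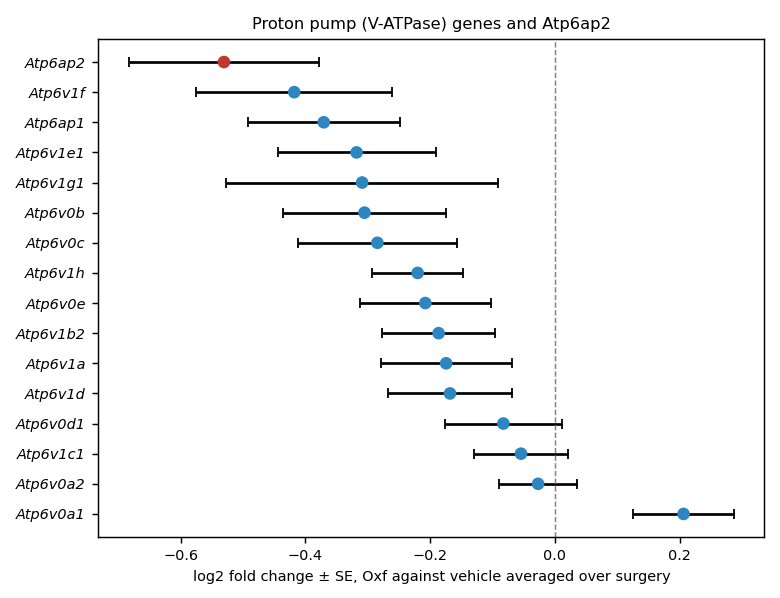
log2 fold change ± SE (x axis) of Oxf against vehicle, averaged over surgery, for Atp6ap2 (red) and 15 other genes of the vacuolar proton pump (y axis). Atp6ap2 has the lowest value of the 16 genes, and Atp6v0a1 alone lies above 0.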

How the data were processed

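Ventricular RNA of 28 mice was sequenced. The authors deposited 1 table of raw gene counts, and the submitters' processing notes name FastQC 0.11.7, MultiQC 1.9, STAR 2.6.1d, Subread, featureCounts 1.6.3 and mm10, without their roles. Strand, multimapping and annotation are not given in the sources used here. Of 45513 identifiers, 45465 were in GENCODE M21, from which positions and exon lengths were taken, and 0 library columns were unmapped. Of 10 mice a group in the design, those outside the table were not analysed here. Replicates were numbered in accession order, and p-values measure the spread between mice.

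Genes were filtered with filterByExpr (minimum count 10), scaled by TMM and fitted over 4 group means with edgeR 4.0.16 (robust quasi-likelihood F test, R 4.3.3), which left 24273 genes. The SE is the absolute log2 fold change divided by the root of F. CPM uses TMM library sizes, and log2 CPM a prior count of 2. The fit was tested on simulated data. Alternatives were DESeq2 1.42.0, limma 3.58.1 voom weighted by sample, edgeR scaled by DESeq2 size factors or upper quartiles, no filter on counts, a filter of 10 counts in each library, only the groups compared, clock, adipocyte or fibroblast scores as covariates, and each library left out. The 7SL covariate, and the permutation tests of gene pairs and of library measures, were chosen after seeing the data. Scores are mean deviations of marker genes. Python 3.11.15, numpy 2.4.6, pandas 2.3.3 and scipy 1.17.1 did the rest.

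Genes named are the members, list genes past the threshold, the gene of smallest p in a list where none passed, and the 3 genes most like each member; Atp6v0a1 was chosen after its values were seen. The members and lists were chosen with earlier results of these data known. A result among the list genes is not reported here.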

Additional observations from a re-analysis of the deposited data

Results flagged for a closer look

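A single library stood far from the rest of its group in 3 of 28 combinations of gene and group, where chance flags about 1 in 20 groups, or 1.4 here. Ace was at 77.7 CPM in sham-vehicle replicate 1, with the nearest library at 62.0 CPM and a gap of 0.700 of the group's range. Ace was at 75.9 CPM in CKD-Oxf replicate 3, with the nearest at 52.9 CPM (gap 0.576). Mas1 was at 1.73 CPM in CKD-Oxf replicate 4, with the nearest at 3.43 CPM (gap 0.592).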

How the results depend on the processing

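For the averaged Oxf effect, the number of members past the threshold was 0 in the reported fit, 1 with DESeq2 size factors, upper quartile factors or at least 10 counts in every library, 2 with the adipocyte score or DESeq2, and 3 with limma voom. These settings called 3.15%, 3.3%, 10.1%, 8.39%, 8.79% and 21.9% of all genes, in that order. The pathway count, 3 as reported, was 9 with DESeq2, 11 with the adipocyte score, 8 with at least 10 counts in every library, 0 with the clock or the fibroblast score and 21 with limma voom, of at most 80 genes, beside the same shares of all genes and 0% (clock) and 0.0742% (fibroblast). In CKD-Oxf against CKD-vehicle limma voom called 2 members and 15 pathway genes, and DESeq2 and the filter of 10 counts in every library 1 pathway gene each (14.9%, 0.832% and 0.0996% of all genes). In sham-Oxf against sham-vehicle the pathway count was 3 with DESeq2, 1 with the adipocyte score and 1 with limma voom (0.548%, 0.4% and 0.132% of all genes). DESeq2 called 1 pathway gene in CKD-Oxf against sham-Oxf and 1 for the averaged surgery effect (0.412% and 0.424% of all genes).

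Log2 fold changes that turned sign, none of them past the threshold in the reported fit, were as follows, and the cause was not tested. In CKD-vehicle against sham-vehicle, Nr3c2 was at 0.10 with the clock score, and Atp6ap2 at 0.0053 with no filter, 0.013 with the fibroblast score, 0.013 with only the groups compared and 0.048 with limma voom. In CKD-Oxf against CKD-vehicle, the clock score gave -0.13 for Nr3c2 and -0.11 for Usp2, and Agt was at -0.10 with the adipocyte score, -0.059 with the 7SL share and -0.038 with limma voom. In sham-Oxf against sham-vehicle, Agtr1a was at 0.031 with upper quartile factors, 0.026 with the 7SL share and 0.0066 with limma voom, and Nr3c1 at 0.065 with the 7SL share. In CKD-Oxf against sham-Oxf, Ace was at -0.024 with upper quartile factors and -0.0015 with at least 10 counts in every library, Atp6ap2 at -0.047 with the clock score, -0.10 with the 7SL share and -0.15 with limma voom, and Hsd11b1 at -0.043 with limma voom. There the 7SL share gave 0.035 for Nr3c2, 0.094 for Mas1 and 0.12 for H6pd. For the averaged Oxf effect, Agt was at 0.055 with the fibroblast score, Ace at 0.023 with limma voom and Nr3c2 at -0.041 with the clock score.

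Leaving out each library in turn gave ranges of -0.048 to 0.29 (Agt) and -0.17 to 0.11 (Atp6ap2) in CKD-vehicle against sham-vehicle, and -0.15 to 0.28 (Agt) and -0.042 to 0.16 (Ace) in CKD-Oxf against CKD-vehicle. Agtr1a ran from -0.15 to 0.085 in sham-Oxf against sham-vehicle. In CKD-Oxf against sham-Oxf the ranges were -0.10 to 0.079 (Ace), -0.18 to 0.058 (Agtr1a), -0.11 to 0.13 (Atp6ap2), -0.30 to 0.033 (Mas1) and -0.14 to 0.00051 (H6pd). Counts ran from 0 to 2 members and 2 to 14 pathway genes for the averaged Oxf effect, and from 0 to 2 pathway genes in CKD-Oxf against CKD-vehicle. No paired analysis was possible because each mouse has its own number and the labels give the groups no shared replicate numbers. The depth did not allow a test of Agtr1b or Agtr2.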
